A study of Homo sapiens with 6 samples.

Results

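HNRNPK and 9 of its relatives were followed after silencing of the long noncoding RNA FAM83H-AS1 in cells that the study names A549. The relatives are the poly(C)-binding protein genes PCBP1, PCBP2 and PCBP4 and the hnRNP genes HNRNPA1, HNRNPA2B1, HNRNPC, HNRNPL, HNRNPM and HNRNPU. The genes were chosen by gene symbol, and all 10 were found among the 40173 genes of the count table. The study silenced FAM83H-AS1 by siRNA transfection, and HNRNPK is one of the proteins it examined beside that RNA. RNA-Seq counts were available for 3 negative control libraries and for 3 FAM83H-AS1-silenced libraries, prepared on the Ion Proton platform from total RNA harvested the day after transfection. Both groups were transfected, 1 cell line was used, and the labels do not say whether replicates were separate cultures, so that p-values here measure the spread between these libraries only.

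Heterogeneous nuclear ribonucleoproteins (hnRNPs) coat new transcripts in the nucleus and act in splicing, export, stability and translation. HNRNPK and the poly(C)-binding proteins bind C-rich RNA through KH domains, whereas most other hnRNPs carry RNA recognition motifs. PCBP1 and PCBP2 are also known as iron chaperones that hand iron to ferritin and to iron-dependent enzymes.

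The libraries held between 9738291 and 17742643 counts, and 15250 genes passed the filter on low counts, all 10 genes included. Chi-square values between pairs of replicates were 3.92 to 26.8 times their degrees of freedom, so that no pair looked like 1 library deposited again. FAM83H-AS1 itself had 14.5, 16.0 and 17.3 CPM (mapped counts relative to the size of the library after TMM scaling) in the control libraries and 4.59, 4.44 and 5.57 CPM in the silenced libraries, a log2 fold change of -1.70 (SE 0.148, edgeR adjusted p = 7.99e-05). Of the markers named for these cells, the keratins KRT8 and KRT18 ranged from 951 to 2080 CPM, while the epithelial genes EPCAM and CDH1 were at 0.691 to 4.49 CPM. AKR1B10 and ALDH1A1, which A549 cells are known to express strongly, were at most 2.44 CPM. The levels of these genes do not bear out the cell name, which comes from the study. The summed level of the 6 markers was 2930 to 3450 CPM in control and 2590 to 2630 CPM in silenced libraries, and KRT18 fell (log2 fold change -0.43, adjusted p = 0.00266) while AKR1B10, at 9 to 28 counts a library, rose (1.31, adjusted p = 0.0135), a call lost without silenced replicate 1 (adjusted p = 0.0671) and after thinning to the smallest library (0.0553). The 4 markers of leukocytes, endothelium, muscle and fibroblasts summed to at least 7.61 CPM in control libraries and to 9.06 to 10.4 CPM in silenced libraries, most of it on DES, while PTPRC and PECAM1 were at most 0.149 CPM. The part of these cell markers in the results was not tested.

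The start regions of the genes are shown first, because HNRNPL and HNRNPM were the members whose level fell and HNRNPK was the one the study examined. The 250 bases before the RefSeq start site on GRCh38.p14 lie at chr9:83980616-83980865 on the minus strand for HNRNPK, at chr19:38852348-38852597 on the minus strand for HNRNPL and at chr19:8444725-8444974 on the plus strand for HNRNPM. They are written 5′ to 3′ along the gene, and capitals mark 5 words searched on both strands, the CCAAT box (CCAAT), the GC box (GGGCGG), the E-box (CACGTG), the ETS core (CCGGAA) and the TATA box (TATAAA).
HNRNPK: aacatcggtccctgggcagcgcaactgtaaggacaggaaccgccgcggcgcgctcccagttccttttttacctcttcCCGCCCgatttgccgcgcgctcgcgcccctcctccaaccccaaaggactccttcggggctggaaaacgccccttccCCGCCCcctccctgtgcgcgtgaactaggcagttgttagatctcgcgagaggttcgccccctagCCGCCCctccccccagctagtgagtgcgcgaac
HNRNPL: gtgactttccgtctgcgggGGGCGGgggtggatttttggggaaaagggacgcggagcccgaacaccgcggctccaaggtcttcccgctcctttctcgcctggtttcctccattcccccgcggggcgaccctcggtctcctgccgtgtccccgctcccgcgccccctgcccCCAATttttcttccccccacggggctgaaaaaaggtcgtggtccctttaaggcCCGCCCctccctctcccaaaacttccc
HNRNPM: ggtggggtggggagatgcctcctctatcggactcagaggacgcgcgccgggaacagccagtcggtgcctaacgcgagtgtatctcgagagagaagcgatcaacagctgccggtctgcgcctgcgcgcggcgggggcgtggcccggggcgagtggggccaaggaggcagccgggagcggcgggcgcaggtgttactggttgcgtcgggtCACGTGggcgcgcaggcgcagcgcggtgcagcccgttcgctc
HNRNPK held 3 GC boxes and no other word. HNRNPL held 2 GC boxes and 1 CCAAT box. HNRNPM held 1 E-box, the word found in 6.32% of 34943 start regions of this length, and none of the other 4 words. The GC box was found in 42.5% and the CCAAT box in 32.0% of these start regions. The most upstream start site was used for each gene; HNRNPK and HNRNPL each have 2 windows in the table, and the other window was not searched. These matches describe letters only, and 9 of the 10 genes had a start region in the table used, HNRNPA1 being the exception.

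PCBP1 and PCBP2 are close relatives, PCBP1 being an intronless gene on chromosome 2 and PCBP2 a gene of many exons on chromosome 12. Their start regions were compared because the members of a pair of related genes may still share upstream sequence. The ungapped 60-base windows with the most identical bases begin 64 bases before the RefSeq start of PCBP1 and 69 bases before that of PCBP2. The 45 identical bases are in capitals.
PCBP1: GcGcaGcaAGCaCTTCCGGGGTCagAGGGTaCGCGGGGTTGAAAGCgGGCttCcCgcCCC
PCBP2: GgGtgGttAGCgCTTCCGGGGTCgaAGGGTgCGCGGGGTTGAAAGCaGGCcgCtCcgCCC
Both windows hold the ETS core, which 14.5% of all start regions held. Of 34941 other start regions, 0 had a window with as many bases identical to PCBP1.

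HNRNPK, which binds C-rich RNA and DNA and is known as a regulator of MYC, kept its mRNA level within a narrow interval. Its level was 368, 396 and 393 CPM in the control libraries and 368, 422 and 380 CPM in the silenced libraries. The groups overlapped, with the highest value in silenced replicate 2 and 368 CPM as the lowest value of each group. The log2 fold change was 0.02 (SE 0.0736, 95% interval -0.14 to 0.18, adjusted p = 0.902), so that the interval of the fold runs from 0.905 to 1.13. An exact permutation test of the CPM values, two-sided, gave p = 0.8, where 0.1 is the smallest p that 3 against 3 libraries allow. The sign is not settled, since the value was -0.04 without silenced replicate 2 and -0.02 without control replicate 1. HNRNPK lies at chr9:83968083-83980616 (GRCh38, minus strand).

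**Figure D1:**
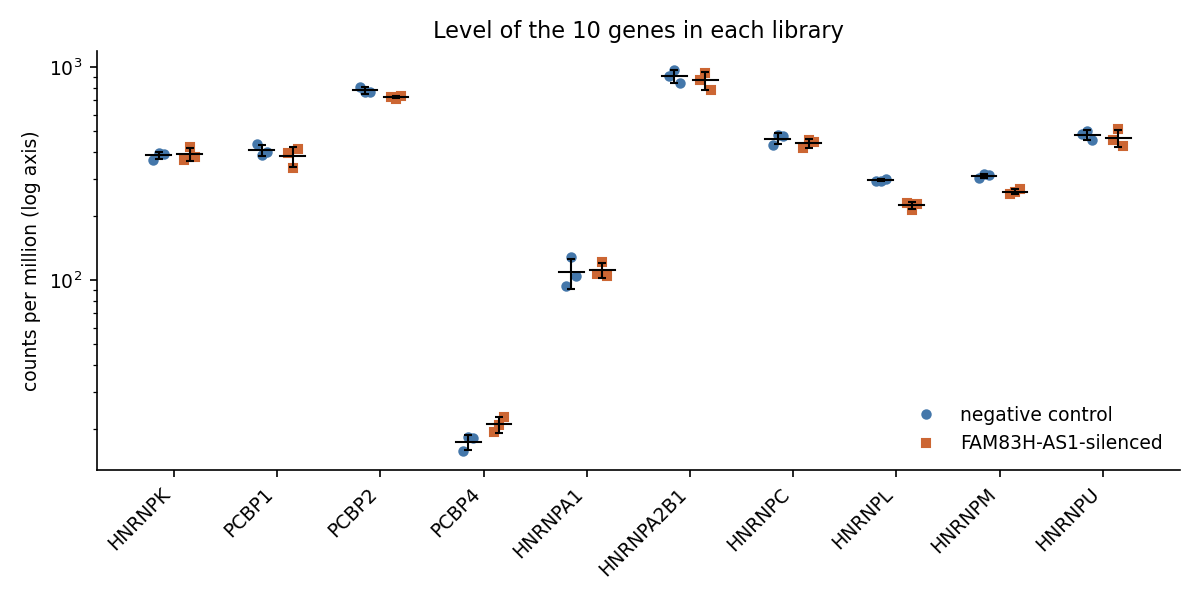
Level of the 10 genes in each library in CPM on a log axis, with circles for the 3 negative control and squares for the 3 FAM83H-AS1-silenced libraries, and lines and bars for the mean ± SD. HNRNPL and HNRNPM have silenced libraries below all control libraries, while those of HNRNPK overlap.

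Of the 10 genes, 2 passed an adjusted p of 0.05, HNRNPL and HNRNPM, and both fell. Over all 15250 genes tested, 17.0% passed in either direction, 8.27% with a lower and 8.75% with a higher level. Among the 2232 genes with a mean of at least 100 CPM, a bound chosen after the values had been seen and met by 9 of the 10 genes, 25.2% passed. The count of 2 among 10 is near these backgrounds. None of the 10 changed more than 2-fold with an adjusted p under 0.05, as did 2.14% of all genes. The median log2 fold change of the 10 was -0.07, beside 0.00 over all genes, and 7 of the 10 values were below 0. The median absolute log2 fold change was 0.09 for the 10 genes and 0.2 for all genes tested. Most genes tested were less abundant than these members, and the 2 medians were not matched for level.

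HNRNPL, a splicing regulator that binds CA repeats, showed the largest change among the 10. It had 293, 293 and 300 CPM in the control libraries and 231, 215 and 229 CPM in the silenced libraries. The groups were far apart relative to their spread, with means of 295 ± 4.20 and 225 ± 8.98 CPM (SD, n = 3 each). The log2 fold change was -0.39 (SE 0.0657, 95% interval -0.54 to -0.25, adjusted p = 0.00317), a silenced level of 0.761 times the control level. Under the alternative settings its adjusted p stayed between 4.61e-06 and 0.0192.

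HNRNPM, which binds GU-rich RNA and takes part in alternative splicing, fell less. It had 303, 315 and 313 CPM in the control libraries and 254, 261 and 267 CPM in the silenced libraries, with no overlap. The log2 fold change was -0.25 (SE 0.0640, 95% interval -0.39 to -0.11, adjusted p = 0.0220). This call depended on single libraries, with an adjusted p of 0.107 without silenced replicate 1, 0.0673 without control replicate 2 and 0.0551 without control replicate 3.

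A ratio of counts within a library does not depend on the scaling between libraries, and is given for the members that passed as a description of the same fall. Per count of HNRNPK, HNRNPL had 0.797, 0.740 and 0.765 counts in the control libraries and 0.628, 0.508 and 0.602 counts in the silenced libraries. HNRNPM had 0.823, 0.795 and 0.798 counts per HNRNPK count in control and 0.690, 0.618 and 0.701 in silenced libraries. In both ratios every silenced library was below every control library. PCBP4 per HNRNPK count was higher in every silenced library (0.0495 to 0.0602 against 0.0431 to 0.0462), while the ratios of PCBP1 (1.06 ± 0.106 in control and 0.986 ± 0.164 in silenced libraries, SD, n = 3 each) and PCBP2 (2.03 ± 0.159 and 1.87 ± 0.155) overlapped.

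**Figure D2:**
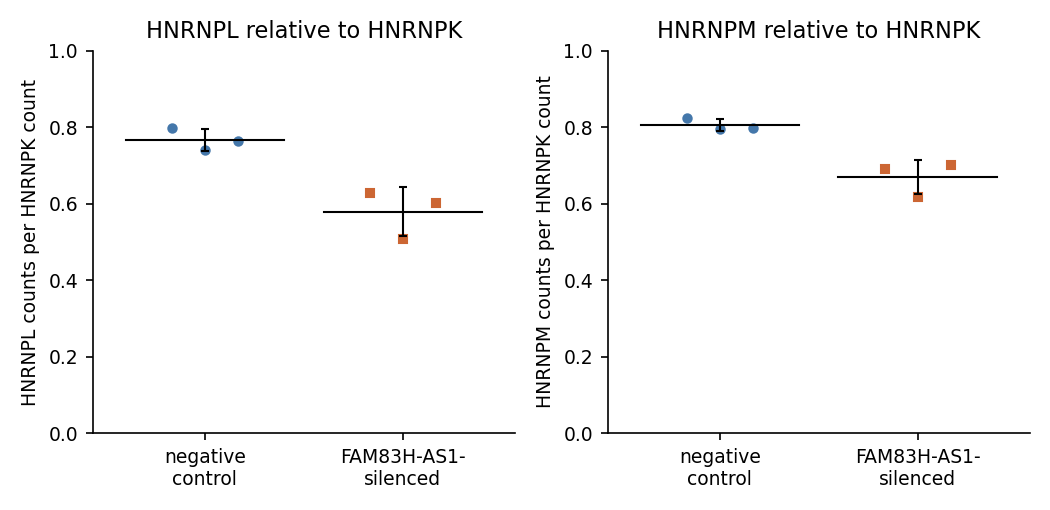
Counts of HNRNPL (left) and HNRNPM (right) per count of HNRNPK in the same library, with points for the libraries and lines and bars for the mean ± SD of 3. The silenced libraries lie below every control library in both panels.

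Among the KH-domain genes, PCBP2 had 813, 763 and 763 CPM in control and 729, 713 and 732 CPM in silenced libraries. The silenced libraries were all lower, but the log2 fold change of -0.10 (SE 0.0647, 95% interval -0.25 to 0.04) had an adjusted p of 0.293. MAP3K12, a kinase gene that overlaps PCBP2 on the opposite strand and was looked at after its values were seen, had 22.7 to 25.4 CPM in control and 44.6 to 49.7 CPM in silenced libraries, a rise of 1.95-fold (adjusted p = 0.000103). Whether reads were counted by strand is not given in the sources used here, and the share of either gene in the other's counts was not tested.

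PCBP1 had 435, 389 and 402 CPM in control and 397, 336 and 412 CPM in silenced libraries. The groups overlapped, with the lowest value in silenced replicate 2, and the log2 fold change was -0.10 (95% interval -0.29 to 0.09, adjusted p = 0.462). The count of PCBP2 per count of PCBP1 was 1.91 ± 0.0469 in control and 1.91 ± 0.185 in silenced libraries (SD, n = 3 each; exact permutation p = 1.0). PCBP1-AS1, which lies on the opposite strand of PCBP1, had 29 to 70 counts a library, against 3635 to 6797 counts for PCBP1.

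PCBP4, a less abundant poly(C)-binding gene, had 15.8, 18.3 and 18.2 CPM in control and 19.3, 20.9 and 22.9 CPM in silenced libraries. The silenced libraries were all higher, and the log2 fold change was 0.27 (SE 0.110, 95% interval 0.03 to 0.51), but the adjusted p was 0.117. It was the least precise of the KH-domain genes, with 154 to 308 counts a library. The gene ABHD14A-ACY1, which starts 690 bases from PCBP4 on the opposite strand, rose by a log2 fold change of 0.48 (SE 0.109, adjusted p = 0.0143). This call was lost without silenced replicate 1 (adjusted p = 0.0640). ABHD14A, which overlaps PCBP4 on the opposite strand, had a log2 fold change of -0.21 (adjusted p = 0.355). ABHD14B, which overlaps PCBP4 on the same strand, had 0.05 (adjusted p = 0.723). Both were read after the values had been seen, and reads shared between these genes were not tested. PCBP3, the remaining poly(C)-binding gene, had 0 to 3 counts a library and was not tested. With PCBP2, PCBP4, HNRNPL and HNRNPM, 4 of the 10 genes had groups that did not overlap, as did 36.6% of all genes tested. The silenced libraries were all lower in 3 of the 10, beside 17.5% of all genes, and all higher in 1, beside 19.1%.

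The A/B type genes encode abundant proteins that bind UAGG-like RNA and repress splice sites. HNRNPA2B1 had 907, 974 and 845 CPM in control and 877, 945 and 783 CPM in silenced libraries, a log2 fold change of -0.07 (95% interval -0.25 to 0.12, adjusted p = 0.636). HNRNPA1 had 93.8, 128 and 105 CPM in control and 107, 122 and 105 CPM in silenced libraries, a log2 fold change of 0.03 (95% interval -0.22 to 0.27, adjusted p = 0.905). In both genes the groups overlapped, and the second replicate was the highest of each group.

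HNRNPC, which binds U tracts, had 433, 480 and 477 CPM in control and 416, 457 and 444 CPM in silenced libraries, a log2 fold change of -0.08 (95% interval -0.23 to 0.08, adjusted p = 0.493). HNRNPU, also known as scaffold attachment factor A, had 488, 503 and 455 CPM in control and 455, 511 and 429 CPM in silenced libraries, a log2 fold change of -0.05 (95% interval -0.23 to 0.12, adjusted p = 0.691). The groups of both genes overlapped. For all 8 genes that did not pass the threshold, the 95% interval excluded a 2-fold change in either direction.

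The 10 genes held 0.388% to 0.429% of all counts in the control libraries and 0.379% to 0.409% in the silenced libraries. These shares overlapped, and an exact permutation test gave p = 0.3. The genes differed far more from each other than between groups. Per kilobase of merged exons in GENCODE 29, the control level was highest for PCBP1 (234 ± 13.6 CPM per kilobase, SD, n = 3), followed by PCBP2 (98.3 ± 3.64) and HNRNPA2B1 (98.1 ± 6.93), which differed by less than their spread. HNRNPK (75.4 ± 3.01), HNRNPC (63.4 ± 3.58), HNRNPM (55.2 ± 1.18) and HNRNPL (43.3 ± 0.616) came next in levels per kilobase. HNRNPU (21.4 ± 1.08) and HNRNPA1 (21.4 ± 3.44) could not be ordered in this setting, and PCBP4 was lowest (4.66 ± 0.371). With the longest transcript as the length, PCBP2 came first at 253 CPM per kilobase, ahead of PCBP1 at 234, HNRNPM (121) passed HNRNPC (103), and HNRNPU (36.9 ± 1.86) lay above HNRNPA1 (26.5 ± 4.25).

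Copies with shared sequence limit what a count on these genes means. The table lists 93 copies of the 10 genes by symbol, most of them processed pseudogenes and 69 of them copies of HNRNPA1. Of the 93, 26 passed the filter on low counts. For the 90 copies matched in GENCODE 29, the share of 30-base words also found in the member's transcripts ran from 0.0% to 84.1%. Many of these copies are therefore not near-identical to the member. In the control libraries 73.6% ± 0.958 of the counts of HNRNPA1 and its copies lay on the copies (SD, n = 3), and 74.6% ± 1.12 in the silenced libraries (exact permutation p = 0.3). HNRNPA1P7 had 91.4 to 169 CPM and HNRNPA1P48 had 75.5 to 130 CPM, levels like that of HNRNPA1 itself. Of the 30-base words of HNRNPA1P7, 78.2% also occurred in HNRNPA1 transcripts, and 56.1% of those of HNRNPA1P48. Both copies were chosen for their counts after the values had been seen. The level of HNRNPA1 is therefore given as uncertain.

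For HNRNPK and its copies, 22.2% ± 0.681 of the counts lay on the copies in control and 23.9% ± 1.31 in silenced libraries (SD, n = 3; exact permutation p = 0.2). HNRNPKP4, HNRNPKP2 and HNRNPKP1 had log2 fold changes of 0.12, 0.23 and 0.27, with adjusted p of 0.394, 0.251 and 0.302. Their shares of 30-base words in HNRNPK transcripts were 38.5%, 26.5% and 15.9%. With the counts of HNRNPK and its copies summed, the log2 fold change was 0.05 (adjusted p = 0.684).

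For PCBP2 and for HNRNPC the share on the copies was higher in every silenced library, at 18.3% ± 1.09 against 15.5% ± 1.47 and at 18.5% ± 0.386 against 16.4% ± 1.27 (SD, n = 3; exact permutation p = 0.1 for each, the smallest possible). With copies summed, the log2 fold changes moved from -0.10 to -0.06 for PCBP2 and from -0.08 to -0.04 for HNRNPC, and neither passed the threshold.

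**Figure D3:**
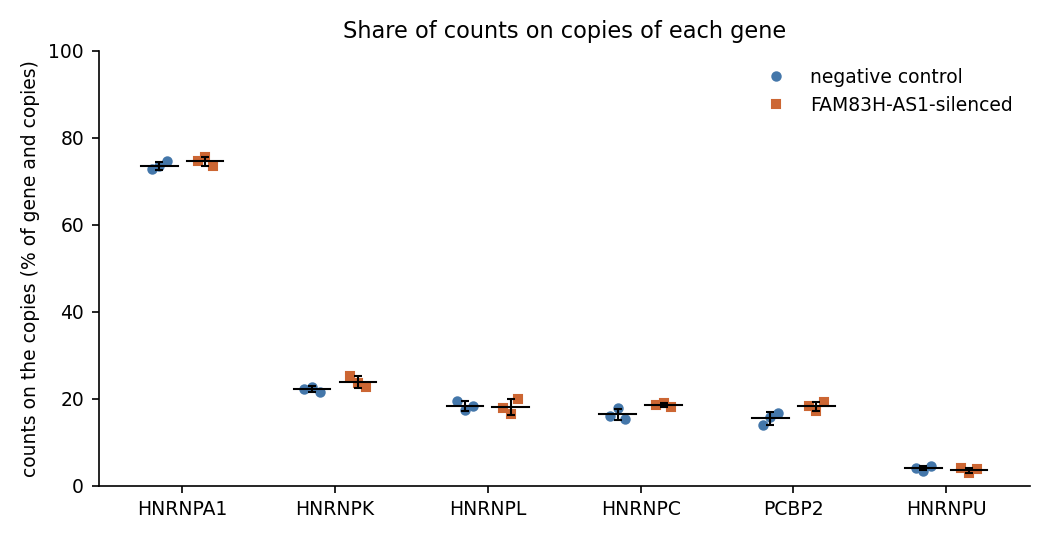
Percent of the counts of a gene and its copies that lay on the copies, for the 6 genes with tested copies, with points for the libraries and lines and bars for the mean ± SD of 3. HNRNPA1 stands near 74%, the others at 25.3% or less, and only PCBP2 and HNRNPC have silenced libraries above all control libraries.

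Of the 26 copies tested, 2 passed an adjusted p of 0.05, both lower, or 7.69% beside 17.0% of all genes. HNRNPLP2, an unprocessed pseudogene on chromosome 15 with 39.5% of its words in HNRNPL transcripts, had 54.1 to 62.6 CPM in control and 38.1 to 51.5 CPM in silenced libraries. Its log2 fold change of -0.40 (SE 0.110, adjusted p = 0.0290) was close to the -0.39 of HNRNPL, and shared reads were not tested. The call was lost without either silenced replicate 1 (adjusted p = 0.0885) or silenced replicate 2 (0.0729) and without control replicate 1 (0.0774) or control replicate 3 (0.0752), and after thinning to the smallest library (0.0537). The sum of HNRNPL and its copies had a log2 fold change of -0.40 (adjusted p = 0.00383). HNRNPA1P33 had 23.4, 28.0 and 32.7 CPM in control and 12.2, 15.6 and 12.3 CPM in silenced libraries, a log2 fold change of -1.08 (SE 0.144, adjusted p = 0.000999). It shares 28.9% of its words with HNRNPA1, whose value was 0.03, and it overlaps the noncoding genes AC244230.2 and LINC00842 on the same strand.

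The other hnRNP genes were read from a list of 22 genes, of which 21 were tested. An adjusted p under 0.05 was reached by 4 of them, 3 lower and 1 higher, or 19.0% beside 17.0% of all genes, with a median log2 fold change of -0.11 beside 0.00. HNRNPAB had 261 to 269 CPM in control and 184 to 200 CPM in silenced libraries, a log2 fold change of -0.47 (SE 0.0663, adjusted p = 0.00124). PTBP1, the polypyrimidine tract binding protein gene, fell from 536 ± 36.3 to 433 ± 16.6 CPM (SD, n = 3; log2 fold change -0.31, adjusted p = 0.0158). The call of PTBP1 was lost without silenced replicate 1 (adjusted p = 0.0827). HNRNPH2, which binds G runs, rose from 37.8 ± 1.27 to 45.5 ± 2.90 CPM (log2 fold change 0.27, adjusted p = 0.0456), a call that DESeq2 did not make (adjusted p = 0.0923) and that was lost whenever 1 library was left out (adjusted p 0.0513 to 0.122). Without silenced replicate 1, the count of 4 genes was 1, or 4.76% beside 7.87% of all genes.

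**Figure D4:**
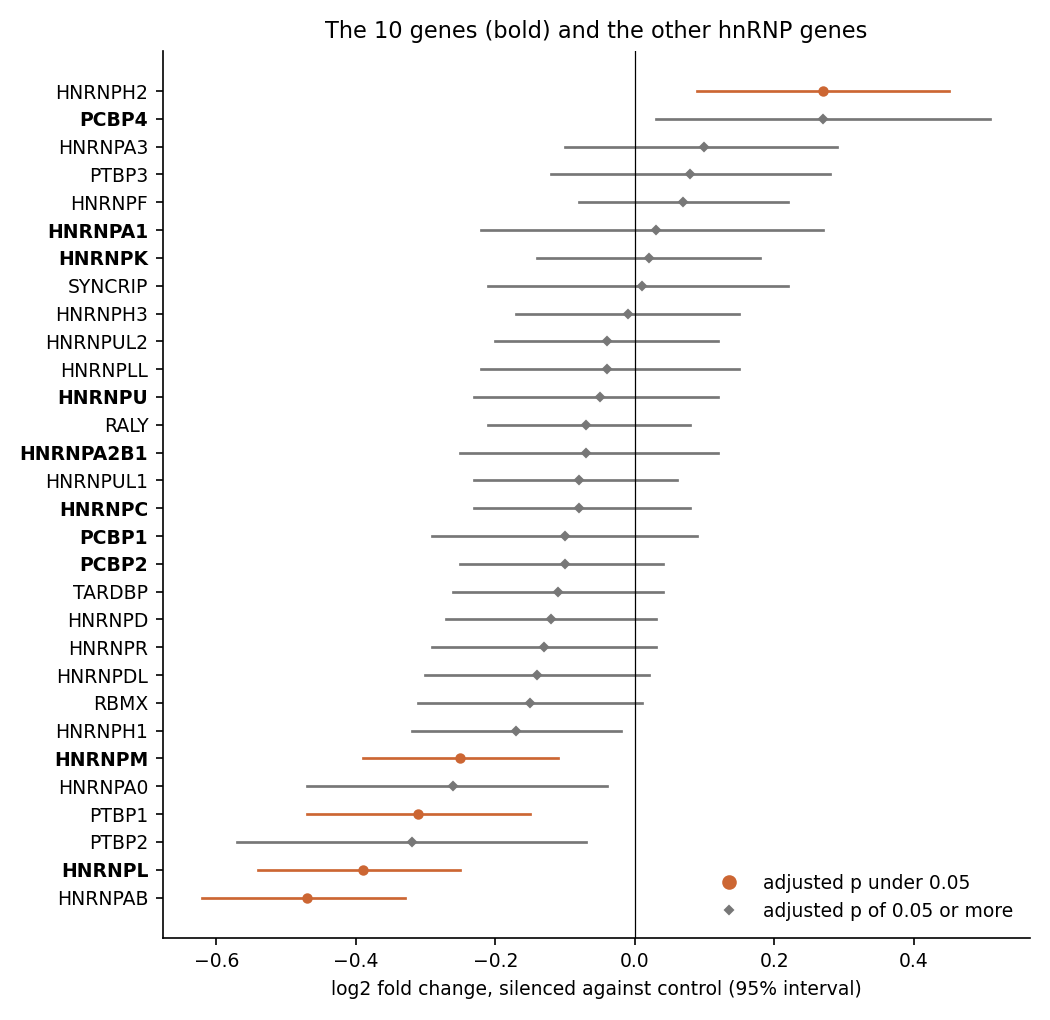
Log2 fold change of silenced against control with its 95% interval for the 10 genes (bold) and 20 of the other hnRNP genes tested, with circles for an adjusted p under 0.05 and diamonds for the rest. HNRNPAB (-0.47) and HNRNPL (-0.39) lie lowest, and HNRNPK (0.02) lies near 0.

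Genes that HNRNPK or the poly(C)-binding proteins are known to act on, or that work with their proteins, were read from a list of 20 genes, of which 19 were tested. An adjusted p under 0.05 was reached by 8, 6 higher and 2 lower, or 42.1% beside 17.0% of all genes, with a median log2 fold change of 0.15 beside 0.00. Without silenced replicate 2, or without control replicate 1, the count of 8 fell to 4, and it was 5 without silenced replicate 1, silenced replicate 3 or control replicate 3. In these settings 21.1% or 26.3% of the list passed, while the share of all genes fell to between 7.87% and 12.7%. The list was chosen with earlier results of these data known, so that its share above the background is not independent evidence. The median of the list was 0.03 without control replicate 2 and 0.07 without silenced replicate 2.

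Among the genes of iron handling, HMOX1, the heme oxygenase that frees iron from heme, had 272, 317 and 516 counts in control and 614, 572 and 681 counts in silenced libraries. Scaled to library size these were 28.6 ± 1.66 and 54.5 ± 4.87 CPM (SD, n = 3 each), with no overlap. This was the largest rise of the list, with a log2 fold change of 0.92 (SE 0.0915, adjusted p = 0.000172). FTL, the ferritin light chain gene, rose from 1140 ± 72.9 to 1550 ± 92.1 CPM (SD, n = 3; log2 fold change 0.44, adjusted p = 0.00384), whereas FTH1, the heavy chain gene, had a log2 fold change of -0.15 (95% interval -0.45 to 0.15, adjusted p = 0.480). Both ferritin genes have pseudogenes, so that their counts are uncertain. SLC11A2, an iron importer, rose by a log2 fold change of 0.34 (adjusted p = 0.0290), and NCOA4, the receptor that sends ferritin to lysosomes, by 0.27 (adjusted p = 0.0498). The SLC11A2 call was lost with any 1 library left out other than control replicate 3 (adjusted p 0.0539 to 0.0777). The NCOA4 call was lost without silenced replicate 1 or 2 or control replicate 1 or 3 (adjusted p 0.112 to 0.153), with RLE size factors (0.0517) and after thinning (0.0561). Other partners of the iron chaperones had values below 0 that did not pass the threshold. BOLA2, which has a near-identical copy, had a log2 fold change of -0.85 (95% interval -1.60 to -0.11, adjusted p = 0.110), with control libraries between 14.3 and 47.1 CPM. DOHH, which makes hypusine, had -0.40 (95% interval -0.78 to -0.02, adjusted p = 0.133), and EGLN1, an oxygen-sensing hydroxylase, had -0.16 (adjusted p = 0.185). SLC40A1, the iron exporter, had 0 counts in all 6 libraries, which allows up to 0.169 to 0.308 CPM a library for counting error.

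Of the genes that HNRNPK is known to act on, CDKN1A, which encodes the p21 cell cycle inhibitor, had 74.5, 74.8 and 68.2 CPM in control and 120, 98.0 and 129 CPM in silenced libraries, a log2 fold change of 0.68 (SE 0.102, adjusted p = 0.00180). MYC fell from 269 ± 19.0 to 220 ± 18.6 CPM (SD, n = 3; log2 fold change -0.29, adjusted p = 0.0334), a call lost with library size scaling (adjusted p = 0.0589). MYC also lost its call without silenced replicate 2 (0.0921) or silenced replicate 3 (0.0953) and without control replicate 1 (0.0980) or control replicate 3 (0.0565). By qRT-PCR and western blot, the study found MYC not significantly changed when FAM83H-AS1 was silenced. SRC (-0.02), MDM2 (0.15) and EIF4E (0.19) gave log2 fold changes that did not pass the threshold. PRMT1, which methylates hnRNP proteins, fell from 199 ± 11.9 to 137 ± 9.98 CPM (log2 fold change -0.54, SE 0.0797, adjusted p = 0.00163). ITCH, a ubiquitin ligase that works with PCBP2 on MAVS, rose by a log2 fold change of 0.27 (adjusted p = 0.0413), and MAVS had 0.16 (adjusted p = 0.219). The ITCH call was lost with any 1 library left out (adjusted p 0.0505 to 0.121) with DESeq2 (0.0551) and after thinning (0.0539). ITCH and NCOA4 were named after their values had been seen, to complete the count of 8.

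**Figure D5:**
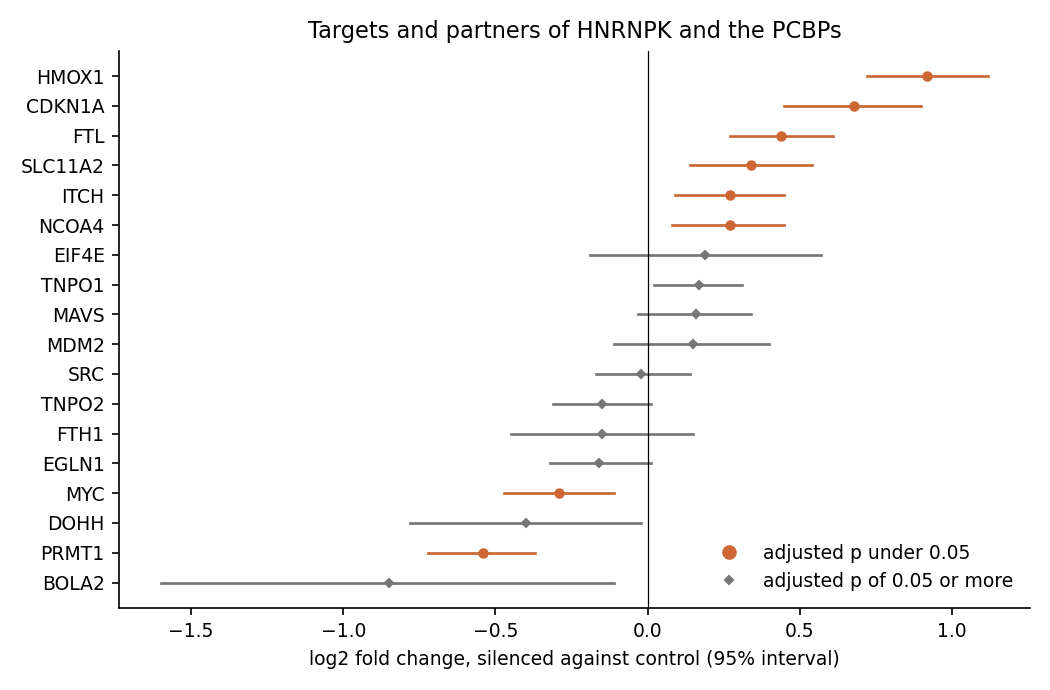
Log2 fold change of silenced against control with its 95% interval for 18 of the tested targets and partners of HNRNPK and the poly(C)-binding proteins, with circles for an adjusted p under 0.05 and diamonds for the rest. HMOX1 (0.92) and CDKN1A (0.68) lie highest, and PRMT1 (-0.54) is the lowest of those that passed.

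Several of the 10 genes start close to a gene on the other strand. RMI1, a DNA repair gene, starts 95 bases from HNRNPK and had a log2 fold change of 0.10 (95% interval -0.19 to 0.39, adjusted p = 0.647), beside 0.02 for HNRNPK. CBX5 and CBX3, which encode heterochromatin proteins, start 60 bases from HNRNPA1 and 367 bases from HNRNPA2B1. CBX5 had a log2 fold change of 0.18 (adjusted p = 0.133) and CBX3 of -0.09 (adjusted p = 0.555). Among these neighbours, ABHD14A-ACY1 beside PCBP4 was the only one tested that passed the threshold.

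As a description, the genes whose log2 CPM followed HNRNPK most closely over the 6 libraries were TTLL4 (Pearson r = 0.983), CIRH1A (0.980) and HSPA9 (0.979), among 4488 genes with a mean of at least 50 CPM. EI24 (0.979), TIMM17A (0.978) and GABARAPL1 (0.973) were most like the mean of the 10 genes after centring. These are the highest of many values over 6 libraries that share depth and group, and no test was made.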

How the data were processed

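The authors sequenced Ion Proton libraries, mapped the reads and counted them per gene on GRCh37 per the labels, and the deposited values are whole counts per gene symbol without normalization. Strand and multiply mapped reads are not given in the sources used here. The table was fitted whole with edgeR 4.0.16 in R 4.3.3 (filterByExpr, TMM, quasi-likelihood F test, 3 silenced against 3 control libraries, no covariate), with Benjamini-Hochberg adjustment over 15250 genes and a threshold of 0.05. Intervals are 95% intervals from the quasi-likelihood standard error. Alternatives were DESeq2 1.42.0, RLE size factors, library size only, 2 other filters, thinning, a replicate block, each library left out, copies summed and a threshold of 0.01. Single values were compared by exact permutation with scipy 1.17.1. The fits were tested on simulated data. No batch is given by the labels.

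The members and lists were chosen with earlier results of these data known. Named genes were all members, at most 6 genes of each list with an adjusted p under 0.05, copies with an adjusted p under 0.05 and at least 50 counts, all copies of HNRNPK with at least 10 counts, neighbours within 1000 bases, and the 3 genes most like HNRNPK or the mean of the members. Other genes of the lists were named after their values were seen, to describe a group. Places and lengths came from GENCODE 29 on GRCh38, start regions from RefSeq on GRCh38.p14; no coordinates of the counting build were used. Of 93 copies, 90 matched GENCODE 29. Some genes of the lists enter the counts but are not reported here by name.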

Additional observations from a re-analysis of the deposited data

How the results depend on the processing

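HNRNPL was the member whose call held under all alternatives. The log2 fold change of HNRNPK was between -0.04 and 0.06 with each library left out, and 0.02 with the replicate number as a block; its sign turned without silenced replicate 2 (-0.04) and without control replicate 1 (-0.02). With each library left out, the counts with an adjusted p under 0.05 were 1 to 2 for the members, 1 to 3 for the other hnRNP genes, 4 to 7 for the targets and partners and 1 to 3 for the copies, while 7.87% to 12.7% of all genes passed. At an adjusted p under 0.01 they were 1, 1, 4 and 1, and 5.92% of all genes passed. The copies also gave 1 after thinning to the smallest library. Leaving out single libraries turned the sign of HNRNPA1, HNRNPA2B1, HNRNPU and RMI1, whose values over all alternatives were -0.07 to 0.15, -0.13 to 0.0019, -0.13 to 0.0011 and -0.02 to 0.2, none past the threshold. The cause of these changes was not tested. After the group mean was subtracted from the log2 CPM of each gene, correlations of same-numbered libraries were 0.124, 0.149 and 0.067. Those of differently numbered libraries were -0.112 to 0.0182. The deviations of each library thus correlated best with those of its own number. Such deviations cancel out within a group, so that these correlations are not independent of each other. The labels do not say whether equal numbers are pairs, and the main fit and the permutation tests did not use them as pairs. With the replicate block 2 members, 5 other hnRNP genes, 9 targets and partners and 2 copies passed. In that setting 22.6% of all genes passed, beside 17.0% in the main fit. Per kilobase levels moved with the choice of transcript for 9 of the 10 genes. PCBP3 and 67 of the 93 copies had too few counts to be tested.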
